A study of Homo sapiens with 6 samples.

Results

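Transcripts of 9 enzymes that handle pentose phosphates were measured in cells labelled Hep3B, a line derived from a human hepatocellular carcinoma, after transfection with si-SNHG17-1 or si-NC. The genes were taken by symbol from the deposited table of raw counts: PGLS, PGD and H6PD of the oxidative branch, RPIA, RPE, TKT and TALDO1 of the non-oxidative branch, and PRPS1 and PRPS2, which carry ribose 5-phosphate onward. They are 9 of the 58243 genes in the table, and 9 of 9 passed the filter on low counts that left 18679 genes for testing. The first group received si-SNHG17-1, a small interfering RNA directed at the long noncoding RNA SNHG17, and the other received the control siRNA si-NC, with 3 libraries of total RNA in each. All 6 libraries come from the same parental cell line and passed through a transfection. Whether each library came from its own culture is not stated in the labels. The p-values therefore reflect the spread among the 6 libraries alone, and that spread may be technical.

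The pentose phosphate pathway branches from glycolysis at glucose 6-phosphate. Its oxidative branch yields NADPH, which serves reductive synthesis and antioxidant defence, and ribulose 5-phosphate. Its non-oxidative branch interconverts pentose phosphates with fructose 6-phosphate and glyceraldehyde 3-phosphate, and runs in either direction. Ribose 5-phosphate leaves the pathway through the PRPP synthetases, which make phosphoribosyl pyrophosphate (PRPP), the activated ribose used for purine, pyrimidine and NAD synthesis. In liver and in liver tumours the pathway is known as a source of both NADPH and nucleotide ribose. The members were selected on pathway membership with their fold changes between the 2 groups already known, so those differences are given as a description, with adjusted p-values over all genes tested, and not as independent evidence about the pathway.

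Of the 9 genes, 1 rose (RPIA) and 3 fell (PGD, TKT and TALDO1) in si-SNHG17-1 cells by the quasi-likelihood test of edgeR at an adjusted p under 0.05 (Benjamini-Hochberg over all genes tested). Among all genes tested, 5.25% were called higher and 5.21% lower. The libraries of the 2 groups did not overlap, with si-SNHG17-1 higher, for RPIA and H6PD, a pattern seen in 16.4% of all genes tested. They did not overlap, with si-SNHG17-1 lower, for PGD, TKT and TALDO1, a pattern seen in 17.3%. The median log2 fold change was −0.21 over the 9 members, 7 of them negative, and −0.0017 over all genes tested. By branch, 0 of 3 oxidative members rose and 1 fell, 1 of 4 non-oxidative members rose and 2 fell, and 0 of 2 PRPP synthetases was called in either direction. Neither synthetase had an unadjusted p under 0.05 by edgeR, and DESeq2 and limma-voom called neither as well.

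The promoters of the 4 genes that passed the test are shown so that the members that moved can be compared at the letters before their annotated starts. Each is the 250 bases before the start of the gene in RefSeq on GRCh38.p14, read 5′ to 3′ on the gene's own strand. The windows are chr1:10398814-10399063 on the plus strand for PGD, chr3:53256023-53256272 on the minus strand for TKT, chr11:747214-747463 on the plus strand for TALDO1 and chr2:88691423-88691672 on the plus strand for RPIA. The RefSeq starts differ from the gene bounds given with each gene below: the PGD window lies wholly inside those bounds, and those of TKT, TALDO1 and RPIA lie inside in part. Capitals mark matches, on either strand, to 4 motifs: TGACNNNGC (the core of the antioxidant response element, bound by NRF2), CACGTG (the E-box, bound by MYC and related factors), CCAAT (bound by NF-Y) and GGGCGG (the GC box, bound by SP1). Overlapping matches share letters.
PGD: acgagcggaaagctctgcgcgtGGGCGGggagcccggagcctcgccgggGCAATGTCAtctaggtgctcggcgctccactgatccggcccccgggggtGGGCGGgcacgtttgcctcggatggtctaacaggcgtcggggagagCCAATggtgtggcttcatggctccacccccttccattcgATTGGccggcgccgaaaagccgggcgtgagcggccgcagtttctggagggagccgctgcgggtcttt
TKT: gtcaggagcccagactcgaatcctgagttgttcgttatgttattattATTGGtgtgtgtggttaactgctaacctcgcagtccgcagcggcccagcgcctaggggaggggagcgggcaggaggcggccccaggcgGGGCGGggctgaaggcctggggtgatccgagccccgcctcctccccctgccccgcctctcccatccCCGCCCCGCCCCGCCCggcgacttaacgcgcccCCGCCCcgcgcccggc
TALDO1: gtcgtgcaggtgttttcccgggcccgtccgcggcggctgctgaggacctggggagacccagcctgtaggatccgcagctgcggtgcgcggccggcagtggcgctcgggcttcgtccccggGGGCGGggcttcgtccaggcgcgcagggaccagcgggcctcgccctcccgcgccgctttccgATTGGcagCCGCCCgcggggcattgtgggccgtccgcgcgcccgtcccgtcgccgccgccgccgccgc
RPIA: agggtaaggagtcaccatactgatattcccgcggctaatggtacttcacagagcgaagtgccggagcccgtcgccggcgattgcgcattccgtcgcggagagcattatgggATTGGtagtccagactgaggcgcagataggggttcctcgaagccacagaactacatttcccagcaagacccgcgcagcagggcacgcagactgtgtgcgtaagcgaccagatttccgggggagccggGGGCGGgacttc

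The antioxidant response element core was found once in the PGD window, beginning 201 bases before the start and read on the opposite strand, and in none of the windows of TKT, TALDO1 and RPIA. Over all 9 members it was present in 2 windows, those of PGD and RPE, against 10.9% of the 35116 RefSeq windows of the same length. An E-box was present in 0 of the 9 windows and in 6.34% of all windows. A CCAAT box was present in 6 of the 9, the 4 shown among them, against 32.0% of all windows. The match lay 139 bases before the start in RPIA, 203 in TKT and 68 in TALDO1, and PGD had a pair, at 106 and 67. GC boxes were present in 7 of the 9 windows and in 42.6% of all windows, with 5 in TKT, of which those at 49, 44 and 39 bases share letters. G and C made up a median of 58% of the bases over all windows. In the member windows they made up 60% (RPIA) to 78.4% (TALDO1), apart from H6PD at 44.8%. The shares of windows with a motif were not adjusted for this base content. The H6PD window (chr1:9239597-9239846, plus strand), counted among the 9, had no match and also lies wholly inside the bounds of its gene. All of these are matches of letters, not sites of binding, and a motif without a match is only absent from the bases of the window.

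Total counts were 37789407, 41620321 and 30207055 in the si-SNHG17-1 libraries and 38245838, 42271168 and 40351473 in the si-NC libraries, so 3 counts correspond to between 0.0710 and 0.0993 CPM, counts scaled to the same library total. SNHG17 itself had 307, 338 and 254 counts in si-SNHG17-1 libraries, against 843, 953 and 948 in si-NC libraries, and its log2 fold change was −1.51 ± 0.12 (SE; adjusted p = 0.00101, edgeR). The hepatocyte markers did not bear out the label of the cells: 9 of 10 were under 1 CPM in every library, with TTR and GPC3 at 0, and their sum was 3.18 to 4.76 CPM in si-SNHG17-1 libraries and 2.16 to 3.27 CPM in si-NC libraries. Summed epithelial markers (6 genes, keratins KRT7, KRT8 and KRT18 above all, EPCAM, CDH1 and KRT19 under 1 CPM) were 1828 to 1890 CPM in si-SNHG17-1 libraries and 2424 to 2807 CPM in si-NC libraries, and KRT7 and KRT18 were called lower. Summed mesenchymal markers (7 genes, COL1A2 at 0) were 1059 to 1158 CPM in si-SNHG17-1 libraries and 843 to 1216 CPM in si-NC libraries, and overlapped. Of these, COL1A1 and COL3A1 were called higher, VIM, the most abundant, averaged 828 TMM-scaled CPM in both groups, and PDGFRB, at 5.76 to 7.64 CPM in si-SNHG17-1 libraries and 7.81 to 8.28 CPM in si-NC libraries, was not called. Leukocyte markers (5 genes, 4 under 1 CPM, the rest being CD68) summed to 42.6 to 61.8 CPM in si-SNHG17-1 libraries and 32.7 to 38.9 CPM in si-NC libraries. Endothelial markers (4 genes, KDR at 0) summed to 5.96 to 7.73 CPM in si-SNHG17-1 libraries and 2.23 to 3.71 CPM in si-NC libraries. Of these, CDH5 was called higher, while PECAM1, at 0.423 to 0.913 CPM in si-SNHG17-1 libraries and 0.991 to 1.94 CPM in si-NC libraries, lay the other way and was not called. The part of these marker differences in the results on the pathway was not tested. In such bulk RNA, fewer cells of a type and less RNA per cell cannot be told apart.

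In the oxidative branch the data show a fall of PGD, which was 33.8% lower in CPM in si-SNHG17-1 cells, while the lactonase PGLS was 4.46% lower and the reticular enzyme H6PD 6.66% higher, and neither passed the test. PGLS (ENSG00000130313.6, chr19:17511629-17521288, plus strand, GRCh38) encodes 6-phosphogluconolactonase, which opens the lactone ring ahead of the second oxidation. Its level, in CPM scaled by the trimmed mean of M values (TMM) as for every CPM value of the members, was 83.0, 90.2 and 79.3 in si-SNHG17-1 libraries, against 84.3, 83.5 and 96.5 in si-NC libraries. The groups overlapped, the third si-NC library being the highest of the 6 and the third si-SNHG17-1 library the lowest. The log2 fold change was −0.07 ± 0.09 (SE; adjusted p = 0.714, edgeR). Exons of PGLS share 261 bases with the antisense gene AC010618.3, which averaged 36.0 ± 4.89 CPM in si-SNHG17-1 libraries and 36.1 ± 5.44 CPM in si-NC libraries (SD, n = 3 each), and whether the counting used strand is not given, so reads of this stretch may belong to either gene.

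PGD (ENSG00000142657.20, chr1:10398592-10420144, plus strand) encodes 6-phosphogluconate dehydrogenase, the NADPH-yielding enzyme that releases ribulose 5-phosphate. It had 212, 214 and 204 CPM in si-SNHG17-1 libraries, against 317, 318 and 316 CPM in si-NC libraries. Every si-SNHG17-1 library lay below every si-NC library, and the coefficient of variation (SD over mean) among the si-NC libraries was 0.295%. That is below the counting error of the 11951, 13280 and 12538 counts in these libraries, so it is no measure of reproducibility. The means were 209.9 ± 5.58 CPM in si-SNHG17-1 cells and 317 ± 0.937 CPM in si-NC cells (SD, n = 3 each), a log2 fold change of −0.60 ± 0.06 (SE; adjusted p = 0.00247, edgeR). The call held without each of the 6 libraries in turn.

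H6PD (ENSG00000049239.12, chr1:9234775-9271337, plus strand) encodes the enzyme of the endoplasmic reticulum that carries out the opening oxidation and lactone hydrolysis inside that compartment, where its NADPH serves steroid reduction by HSD11B1. Its level was 96.2, 97.1 and 97.6 CPM in si-SNHG17-1 libraries, against 96.0, 88.1 and 88.6 CPM in si-NC libraries. The si-SNHG17-1 libraries all lay above the si-NC libraries, but the gap between the nearest libraries was small beside the spread of the si-NC group. The difference was not called, with a log2 fold change of 0.09 ± 0.07 (SE; adjusted p = 0.480, edgeR).

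**Figure D1:**
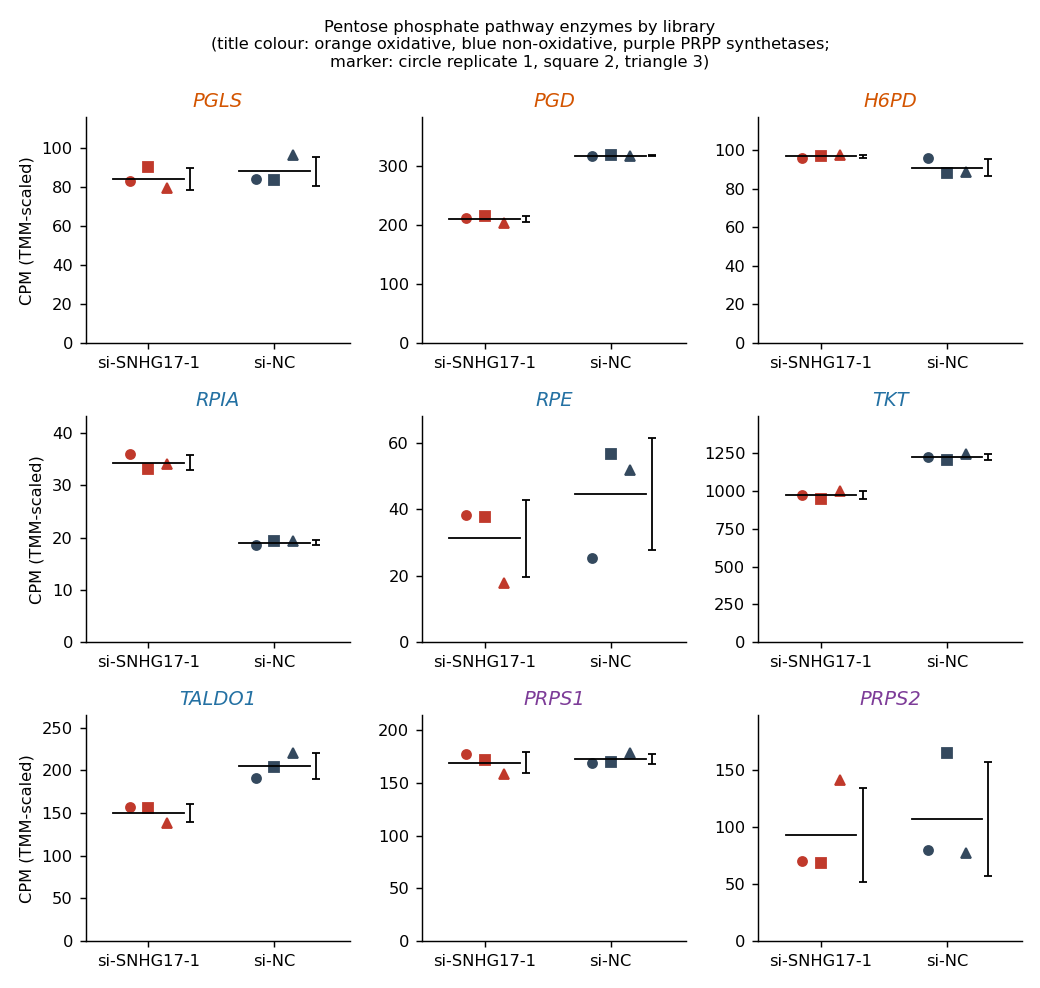
TMM-scaled CPM of each of the 9 genes in each library, with si-SNHG17-1 to the left of si-NC in every panel; points are libraries and bars the mean with its SD (n = 3 each). The points of PGD, TKT, TALDO1 and RPIA fall into separate groups, whereas RPE ranges between 17.8 and 56.7 CPM and PRPS2 between 68.5 and 165 CPM with the groups overlapping.

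In the non-oxidative branch, the isomerase RPIA rose 1.81-fold while transketolase and transaldolase fell by 20.5% and 26.7%, and the epimerase RPE varied too much between libraries to place. RPIA (ENSG00000153574.8, chr2:88691644-88750935, plus strand) encodes ribose 5-phosphate isomerase, which turns ribulose 5-phosphate into ribose 5-phosphate. It had 1377, 1395 and 1045 counts in si-SNHG17-1 libraries, against 699, 804 and 767 in si-NC libraries. In CPM these were 36.0, 33.1 and 34.0 in si-SNHG17-1 libraries, against 18.6, 19.3 and 19.3 in si-NC libraries. The 2 groups lay far apart relative to the spread within either, at 34.4 ± 1.50 CPM in si-SNHG17-1 cells and 19.1 ± 0.434 CPM in si-NC cells (SD, n = 3 each). The log2 fold change was 0.85 ± 0.10 (SE; adjusted p = 0.00429, edgeR), and the call held without each library in turn. RPIAP1, by its symbol a copy of RPIA, had 0 counts in every library.

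RPE (ENSG00000197713.14, chr2:210002565-210022259, plus strand) encodes ribulose 5-phosphate 3-epimerase, which supplies xylulose 5-phosphate to transketolase. It had 1461, 1595 and 547 counts in si-SNHG17-1 libraries, against 955, 2369 and 2058 in si-NC libraries. In CPM these were 38.2, 37.9 and 17.8 in si-SNHG17-1 libraries, against 25.4, 56.7 and 51.9 in si-NC libraries. The third si-SNHG17-1 library and the first si-NC library were low, and the groups overlapped. The highest library had 2.15 times the level of the lowest in si-SNHG17-1 cells and 2.24 times in si-NC cells, and the log2 fold change was −0.51 ± 0.37 (SE; adjusted p = 0.432, edgeR). The value was −0.22 without the third si-SNHG17-1 library and −0.79 without the first si-NC library, and RPE was called in neither case. Exons of RPE share 837 bases with the antisense gene KANSL1L, which had 12.5, 9.19 and 9.60 CPM in si-SNHG17-1 libraries and 6.34, 12.0 and 7.54 CPM in si-NC libraries. Genes named as copies of RPE (RPEP1 to RPEP6 and RPEL1), found by symbol without comparing sequences, had at most 3 counts in any library. How reads matching several genes were counted is not given.

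TKT (ENSG00000163931.15, chr3:53224707-53256052, minus strand) encodes transketolase, the thiamine-dependent enzyme that moves carbon units between sugar phosphates. Its level was 975, 950.2 and 998 CPM in si-SNHG17-1 libraries, against 1224, 1207 and 1246 CPM in si-NC libraries. No library of either group came near the other group. The means were 974 ± 23.8 CPM in si-SNHG17-1 cells and 1225 ± 19.3 CPM in si-NC cells (SD, n = 3 each), a log2 fold change of −0.33 ± 0.05 (SE; adjusted p = 0.00832, edgeR). The call held in 5 of the 6 analyses that left out a library and was lost without the first si-SNHG17-1 library (adjusted p = 0.0586, edgeR). The related genes TKTL1 and TKTL2 had at most 9 counts in any library.

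TALDO1 (ENSG00000177156.10, chr11:747329-765024, plus strand) encodes transaldolase, which works next to transketolase on the way back to fructose 6-phosphate. It had 156.5, 156.3 and 138 CPM in si-SNHG17-1 libraries, against 190.7, 204 and 220.4 CPM in si-NC libraries. The groups did not overlap, and both spread more widely than those of PGD and TKT. The means were 150.3 ± 10.6 CPM in si-SNHG17-1 cells and 205 ± 14.8 CPM in si-NC cells (SD, n = 3 each), a log2 fold change of −0.45 ± 0.09 (SE; adjusted p = 0.0210, edgeR). It was the least stable of the 4 calls, kept without the first si-NC library and lost without any other single library, with adjusted p-values by edgeR of 0.0794, 0.0721 and 0.0889 without si-SNHG17-1 replicate 1, 2 or 3 and of 0.0541 and 0.0587 without si-NC replicate 2 or 3.

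**Figure D2:**
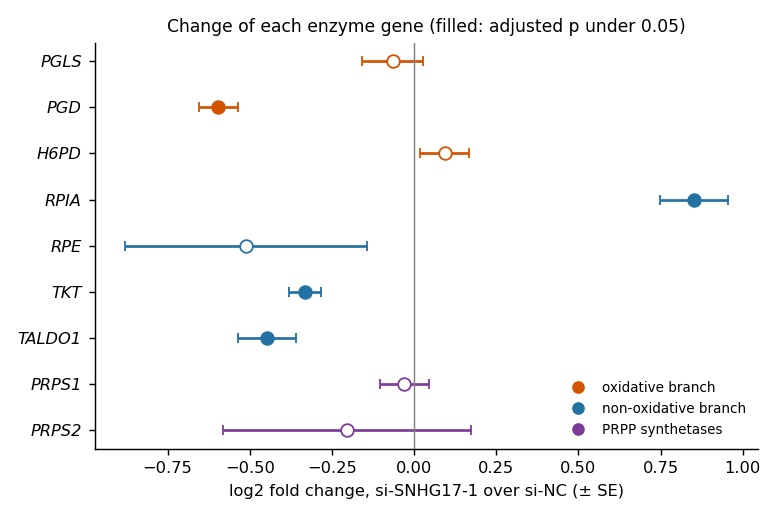
Log2 fold change of si-SNHG17-1 over si-NC for the 9 genes with its standard error, ordered and coloured by branch and filled where edgeR's adjusted p was under 0.05. RPIA lies at 0.85 and PGD, TALDO1 and TKT at −0.60, −0.45 and −0.33, while the error bars of RPE and PRPS2 reach far wider than those of the other genes.

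The PRPP synthetases join the pathway to nucleotide synthesis by transferring pyrophosphate to ribose 5-phosphate. PRPS1 (ENSG00000147224.10, chrX:107628424-107651026, plus strand) had 178, 172 and 158 CPM in si-SNHG17-1 libraries, against 169, 170.5 and 179 CPM in si-NC libraries. The groups overlapped, and the log2 fold change was −0.03 ± 0.07 (SE; adjusted p = 0.844, edgeR). Its copy PRPS1P2 had 11 to 38 counts per library. PRPS2 (ENSG00000101911.12, chrX:12791355-12824222, plus strand) had 69.9, 68.5 and 141 CPM in si-SNHG17-1 libraries, against 80.0, 165 and 76.8 CPM in si-NC libraries. A single library of each group stood apart, the third si-SNHG17-1 library at 2.06 times the lowest of its group and the second si-NC library at 2.15 times the lowest of its group. The log2 fold change was −0.21 ± 0.38 (SE; adjusted p = 0.784, edgeR). It turned to 0.25 without the second si-NC library, and was −0.62 without the third si-SNHG17-1 library and −0.18 without both. As a share of the summed CPM per kilobase of the pair, PRPS1 made up 74.8%, 74.6% and 56.7% in si-SNHG17-1 libraries and 71.2%, 54.7% and 73.1% in si-NC libraries.

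A range of at least 2-fold within both groups, as in RPE and PRPS2, was found in 141 of the 10657 genes with a mean of 10 CPM or more (1.32%), and in either group in 706 (6.62%). The median ratio of the highest to the lowest library was 1.15 among si-SNHG17-1 libraries and 1.21 among si-NC libraries. The libraries of RPE and PRPS2 moved together only in part. The third si-SNHG17-1 library was the lowest of its group for RPE and the highest for PRPS2. The second si-NC library was the highest of its group for both genes. The genes with the most similar profile were found by the root mean square difference of log2 CPM over the 6 libraries, each gene centred on its own mean. For PRPS2 the nearest was FN3KRP, a kinase of glycated proteins, at 0.08. FN3KRP had 33.6, 35.5 and 62.4 CPM in si-SNHG17-1 libraries, against 40.9, 76.6 and 38.5 CPM in si-NC libraries. The same 2 libraries were thus high in both genes, and also in ACOT2, a mitochondrial acyl-CoA thioesterase (0.16). For RPE the nearest were MIS12, a kinetochore gene (0.17), and IGF2BP3, an RNA-binding protein gene (0.23). MIS12 had 55.6, 52.0 and 23.3 CPM in si-SNHG17-1 libraries, against 29.5, 60.9 and 56.1 CPM in si-NC libraries, low in the same 2 libraries as RPE.

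**Figure D3:**
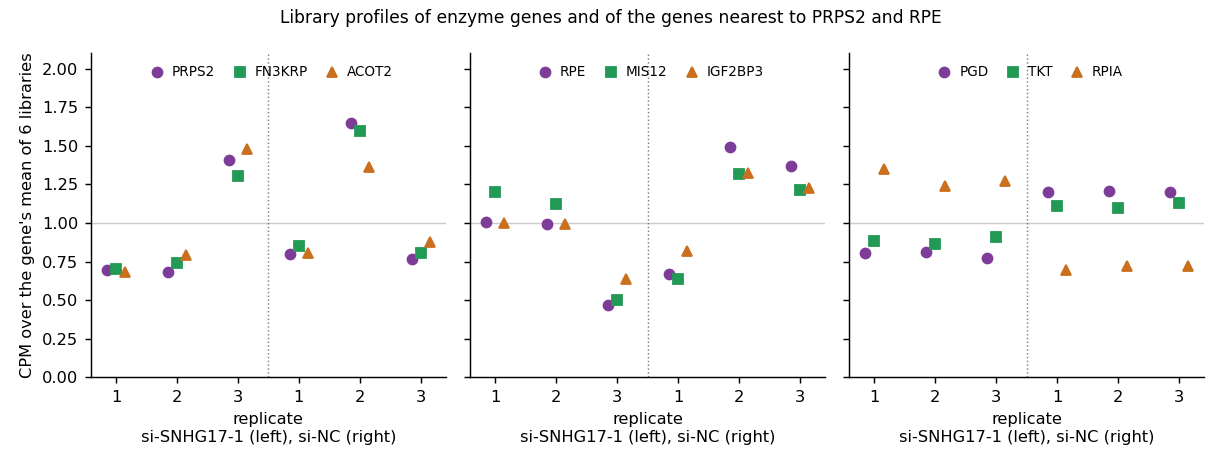
CPM over the gene's own mean in each of the 6 libraries, si-SNHG17-1 on the left, for PRPS2 with its nearest genes FN3KRP and ACOT2, for RPE with MIS12 and IGF2BP3, and for PGD, TKT and RPIA. PRPS2 and RPE each depart from their mean in single libraries of both groups, while PGD, TKT and RPIA step between the groups.

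The other members had much closer neighbours. The nearest profiles were those of ERCC1 and AQP3 for PGD (both 0.02), BOLA3 and SLX1A for TKT (both 0.02), SIDT2 and STN1 for TALDO1 (0.03 and 0.04), and ERLIN1 and VGLL4 for RPIA (0.03 and 0.04). SLX1A has a near-identical copy, so its counts are uncertain. For the members that were not called, they were SH3GL1 and PPP2R3B for PGLS (0.01 and 0.02), NCBP3 and RBM19 for H6PD (both 0.03), and AATF and NEK4 for PRPS1 (both 0.02). Among the members themselves, PGD and TALDO1 lay 0.10 apart, TKT and TALDO1 0.11 and PGD and TKT 0.14, whereas RPIA lay 0.72 from PGD and 0.84 from RPE. A short distance over 6 libraries says only that the 2 profiles have like values there.

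Levels were compared between genes per kilobase of the principal transcript, with lengths from GENCODE release 29. By this length transketolase stood far above the rest. It had 324 ± 7.92 CPM per kilobase in si-SNHG17-1 cells and 407 ± 6.40 in si-NC cells (SD, n = 3 each, as for the following levels). PGD followed with 111 ± 2.96 in si-SNHG17-1 cells and 168 ± 0.497 in si-NC cells, and TALDO1 with 112 ± 7.88 in si-SNHG17-1 cells and 152 ± 11.0 in si-NC cells. PGD and TALDO1 were thus level in si-SNHG17-1 cells, where their libraries overlapped. In si-NC cells PGD lay above TALDO1, with libraries that were close.

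PGLS had 81.9 ± 5.35 CPM per kilobase in si-SNHG17-1 cells and 85.7 ± 7.11 in si-NC cells, and PRPS1 had 78.7 ± 4.66 in si-SNHG17-1 cells and 80.3 ± 2.32 in si-NC cells, which places them side by side within their spread. PRPS2 came next with 37.1 ± 16.5 in si-SNHG17-1 cells and 42.7 ± 19.9 in si-NC cells. The lowest 3 were RPE, RPIA and H6PD. RPE had 12.2 ± 4.55 in si-SNHG17-1 cells and 17.4 ± 6.58 in si-NC cells. RPIA, at 18.6 ± 0.809 in si-SNHG17-1 cells and 10.3 ± 0.235 in si-NC cells, ranked above RPE by its mean in si-SNHG17-1 cells only. H6PD, with the longest transcript of the 9 (9146 bases), had 10.6 ± 0.0766 in si-SNHG17-1 cells and 9.94 ± 0.483 in si-NC cells. In si-NC cells the libraries of RPIA overlapped with those of both RPE and H6PD, and in si-SNHG17-1 cells RPE and H6PD overlapped. With the union of all exons as length, PRPS1 and PRPS2 ranked above PGLS in both groups, and PRPS1 also above TALDO1 in si-SNHG17-1 cells (64.5 for PRPS1 and 50.01 for TALDO1, in CPM per kilobase of exon) but not in si-NC cells (65.9 for PRPS1 and 68.2 for TALDO1). By exon union TKT still ranked highest but lay closer to PGD. The means were 102.5 for TKT and 70.8 for PGD in si-SNHG17-1 cells, and 128.9 and 106.9 in si-NC cells. PGD ranked above TALDO1 in both groups by that length.

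**Figure D4:**
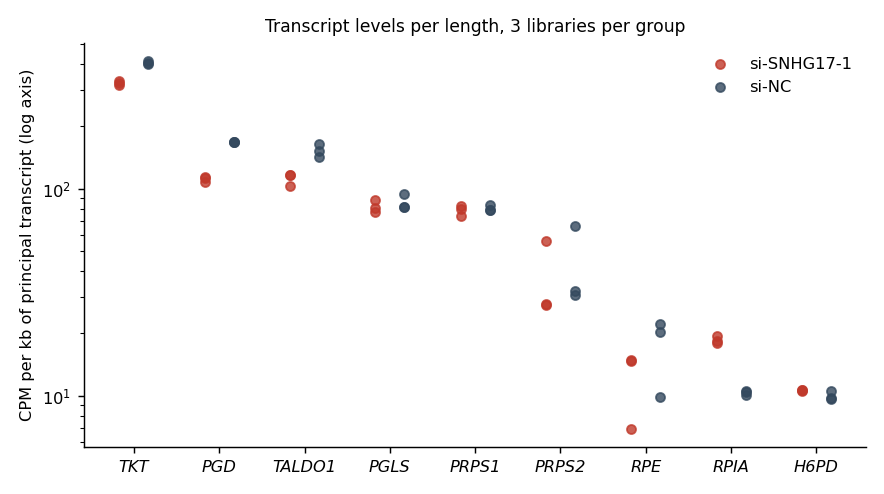
CPM per kilobase of the principal transcript for the 9 genes on a log axis, each library a point, si-SNHG17-1 to the left of si-NC for every gene. TKT leads at 324 and 407 CPM per kilobase, and H6PD, RPIA and RPE lie lowest.

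Ratios between members, which do not depend on how libraries are scaled, put RPIA against its neighbours. RPIA over PGD per kilobase was 0.174, 0.158 and 0.170 in si-SNHG17-1 libraries, against 0.0597, 0.0618 and 0.0624 in si-NC libraries, 2.73 times higher with si-SNHG17-1. RPIA over RPE, the pair of enzymes that compete for ribulose 5-phosphate, was 1.31, 1.22 and 2.66 in si-SNHG17-1 libraries, against 1.02, 0.472 and 0.518 in si-NC libraries. All si-SNHG17-1 libraries lay above the si-NC libraries in both ratios, although for RPIA over RPE the si-SNHG17-1 libraries themselves spread more than 2-fold. TKT over TALDO1 overlapped between the groups, at 2.91 ± 0.279 in si-SNHG17-1 cells and 2.68 ± 0.173 in si-NC cells. H6PD over PGD was 0.0953 ± 0.00304 in si-SNHG17-1 cells and 0.0591 ± 0.00288 in si-NC cells.

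Summed per kilobase of the principal transcript, the oxidative members amounted to 204 ± 8.05 in si-SNHG17-1 cells and 264 ± 6.48 in si-NC cells, 22.8% lower. The non-oxidative members summed to 466 ± 7.79 in si-SNHG17-1 cells and 587 ± 20.1 in si-NC cells, 20.6% lower, with TKT making up 69.5% in si-SNHG17-1 cells and 69.4% in si-NC cells. This share of TKT depends on the length used, 3010 bases for its principal transcript beside 9507 for its exon union. The PRPP synthetases summed to 116 ± 12.1 in si-SNHG17-1 cells and 123 ± 19.1 in si-NC cells, and their libraries overlapped. These sums describe a contrast whose results were known when the members were chosen, and carry no test.

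The genes around the pathway were drawn up as 5 further lists from textbook membership, and 59 of their 69 genes were tested. Of these 2 rose and 14 fell, beside 5.25% of all genes tested called higher and 5.21% called lower. The same shares stand beside the counts of each list below. The median log2 fold change of the 59 genes was −0.16, beside −0.0017 over all genes tested. Other genes of pentose and ribose metabolism showed no call: of 8 tested, 0 rose and 0 fell by edgeR, 2 had an unadjusted p under 0.05, DESeq2 called 1 (RBKS, higher) and limma-voom 0. RBKS, the ribokinase that phosphorylates free ribose, had 26.0 ± 6.17 CPM in si-SNHG17-1 cells and 13.9 ± 3.30 CPM in si-NC cells (SD, n = 3 each; adjusted p = 0.0530, edgeR), and is named after its values were seen. PGM2, which acts on ribose 1-phosphate and is the most abundant of this list, had 76.4 ± 7.70 CPM in si-SNHG17-1 cells and 81.0 ± 2.92 CPM in si-NC cells (SD, n = 3 each; adjusted p = 0.632, edgeR).

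Among the glycolytic genes that share sugar phosphates with the pathway, 1 of 15 tested rose and 5 fell. Their median log2 fold change was −0.16. PFKL, the liver type of phosphofructokinase, rose, with 87.3, 95.3 and 88.2 CPM in si-SNHG17-1 libraries against 57.5, 58.6 and 65.7 CPM in si-NC libraries (log2 fold change 0.57 ± 0.09; adjusted p = 0.00953, edgeR). GAPDH, which uses glyceraldehyde 3-phosphate, fell, with 4501, 4695 and 4182 CPM in si-SNHG17-1 libraries against 5490, 5597 and 5904 CPM in si-NC libraries (log2 fold change −0.34 ± 0.05; adjusted p = 0.0101, edgeR). The groups did not overlap in either gene, and GAPDH lost its call without the first si-SNHG17-1 library (adjusted p = 0.0650, edgeR). The aldolase ALDOC fell by 0.67 on the log2 scale (adjusted p = 0.0114, edgeR), a call lost without si-SNHG17-1 replicate 1 or 3 (adjusted p = 0.0652 and 0.0535, edgeR). The hexokinase HK2 (−0.32) and the phosphofructokinase PFKM (−0.46) also fell, with adjusted p-values of 0.0286 and 0.0332 by edgeR. Whether HK2 and PFKM keep their calls without single libraries is not given here. GPI, which isomerises glucose and fructose 6-phosphate, fell too (−0.40; adjusted p = 0.0248, edgeR), but of the 6 analyses that left out a library only the omission of si-NC replicate 2 kept the call (adjusted p = 0.0566 to 0.0941 in the other 5, edgeR).

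Of 14 genes that make use of PRPP for purines, pyrimidines and NAD or act beside those steps, 0 rose and 4 fell by edgeR, and the median of the list was −0.20 on the log2 scale. At an unadjusted p under 0.05 by edgeR, 3 were higher and 5 lower. The share of all genes at that threshold is not given here. DESeq2 called 1 higher (NAMPT) and 4 lower, and limma-voom 0 higher and 4 lower. GART, a purine synthesis enzyme acting shortly after PRPP is committed, had 129, 139 and 129 CPM in si-SNHG17-1 libraries against 200.1, 196 and 199.8 CPM in si-NC libraries (log2 fold change −0.59 ± 0.07; adjusted p = 0.00377, edgeR), and was called without each library in turn. DHODH of pyrimidine synthesis (−0.79; adjusted p = 0.00955, edgeR) was lost without the first si-SNHG17-1 library (adjusted p = 0.0522, edgeR). NAPRT of NAD synthesis (−0.61; adjusted p = 0.0115, edgeR) and PAICS of purine synthesis (−0.42; adjusted p = 0.0405, edgeR) also fell. NAPRT lost its call without si-SNHG17-1 replicate 2 or 3 (adjusted p = 0.0597 and 0.0593, edgeR). Whether PAICS keeps its call without single libraries is not given here.

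**Figure D5:**
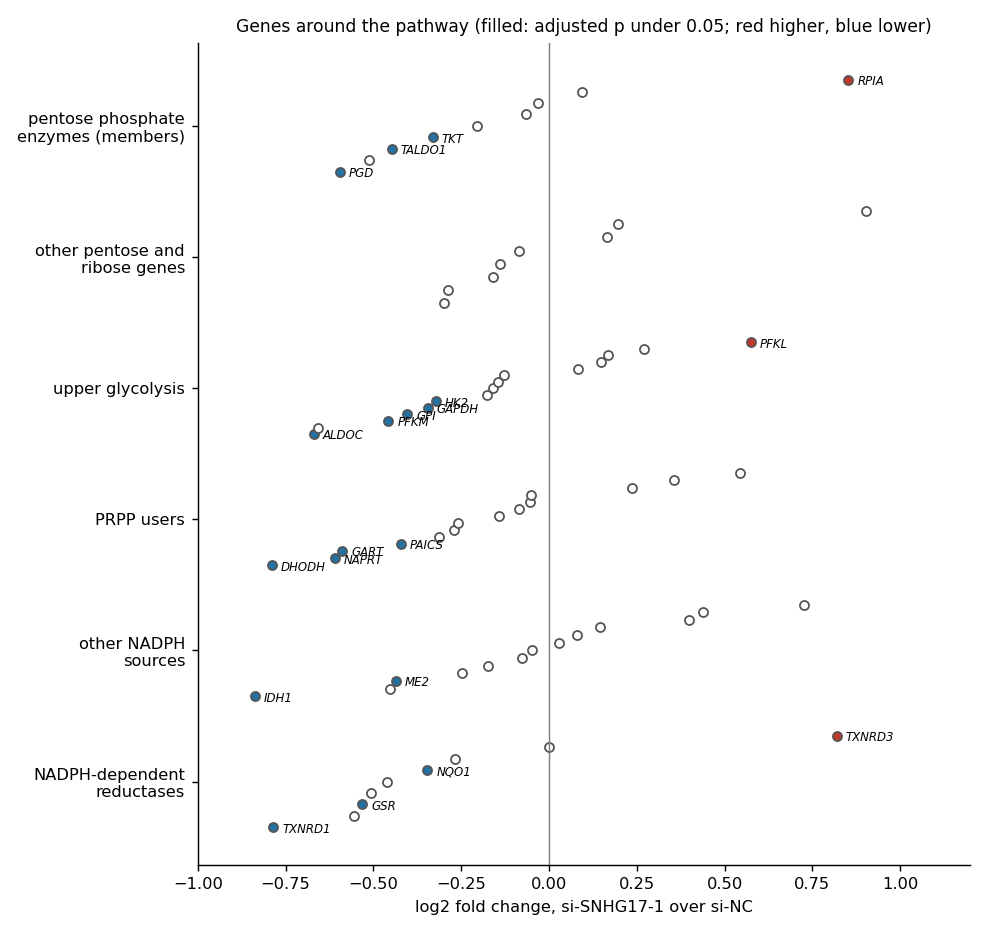
Log2 fold change of si-SNHG17-1 over si-NC for each tested gene of the 9 members and the 5 surrounding lists, each row a list and the points within it set out by rank; called genes are labelled and filled, red for higher and blue for lower. The filled points lie to the left except RPIA, PFKL and TXNRD3.

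Genes on or beside other routes to NADPH gave 0 rises and 2 falls by edgeR among 13 tested. The median of the list was −0.05 on the log2 scale. Not all of them yield NADPH themselves: the list also holds, for example, kinases that make NADP and the malic enzyme ME2, which works mainly with NAD. At an unadjusted p under 0.05 by edgeR, 3 were higher and 4 lower. DESeq2 called 1 higher (ME1) and 2 lower, and limma-voom 0 higher and 2 lower. IDH1, the cytosolic NADP-dependent isocitrate dehydrogenase, had 164.5, 144 and 125 CPM in si-SNHG17-1 libraries against 220.2, 285 and 269 CPM in si-NC libraries (log2 fold change −0.84 ± 0.13; adjusted p = 0.0103, edgeR). Its groups did not overlap, and it lost the call without the second si-SNHG17-1 library (adjusted p = 0.0543, edgeR). ME2, a mitochondrial malic enzyme that works mainly with NAD, fell by 0.44 on the log2 scale (adjusted p = 0.0263, edgeR). Only the omission of si-NC replicate 1 kept the call of ME2 (adjusted p = 0.0561 to 0.105 in the other 5 omissions, edgeR).

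The reductases that spend NADPH in antioxidant defence had the lowest median of the 5 lists, −0.46, with 1 of 9 higher and 3 lower. TXNRD1, the cytosolic thioredoxin reductase, had 978, 896 and 894 CPM in si-SNHG17-1 libraries against 1655, 1524 and 1590 CPM in si-NC libraries (log2 fold change −0.78 ± 0.06; adjusted p = 0.000914, edgeR). GSR, glutathione reductase, had 74.9, 81.2 and 74.7 CPM in si-SNHG17-1 libraries against 116, 110.3 and 108 CPM in si-NC libraries (log2 fold change −0.53 ± 0.08; adjusted p = 0.00761, edgeR). Both were separate between the groups and called without each library in turn. NQO1, a quinone reductase, fell by 0.35 on the log2 scale (adjusted p = 0.0154, edgeR) but was not called without any 1 of the si-SNHG17-1 libraries (adjusted p = 0.0627 to 0.0904, edgeR). TXNRD3 rose, with 16.9 ± 0.937 CPM in si-SNHG17-1 cells and 9.60 ± 1.28 CPM in si-NC cells (SD, n = 3 each; adjusted p = 0.0163, edgeR), and lost its call without si-SNHG17-1 replicate 1 or 2 (adjusted p = 0.0677 and 0.0582, edgeR).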

How the data were processed

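RNA sequencing of cells labelled Hep3B gave 3 libraries per group. The deposited matrix holds each gene's count of reads as a whole number, without normalisation. HISAT2 was used for alignment and GRCh38 was the build, per the submitters' processing notes. What counted the reads, with which annotation and with or without strand, is not given in the sources used here. Another deposited column, the length of the whole gene with introns, was not used. Of its 58243 identifiers, 57980 matched GENCODE release 29 without the version and 55619 with it, and transcript lengths come from there. Promoter windows come from RefSeq.

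The contrast of si-SNHG17-1 over si-NC was fitted with edgeR 4.0.16 (R 4.3.3) after filterByExpr (minimum count 10, minimum total 15), with TMM scaling, the quasi-likelihood F test without a replicate block and Benjamini-Hochberg adjustment over 18679 genes. The standard error is the absolute log2 fold change over the square root of F. Alternatives were DESeq2 1.42.0, limma-voom (limma 3.58.1), other scalings and filters, and leaving out libraries. Marker sums are CPM per total count. The members and lists were chosen with earlier results of these data known. Genes named are the 9 members and SNHG17, in each other list up to 3 called genes per direction with the smallest adjusted p (the most abundant gene where none was called), and the 2 nearest profiles of each member among genes of at least 10 CPM; HK2, PFKM, PAICS, RBKS, NAMPT and ME1 were named after their values were seen. The floor of 3 counts per library covers counting error only. Libraries of a group differed by more than counting error in every pair (chi-square over its degrees of freedom of 24.6 to 50.4), and all 6 were kept.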

Additional observations from a re-analysis of the deposited data

How the results depend on the processing

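The count of members called (1 higher, 3 lower) was the same with median-of-ratios size factors, total counts alone, no filter, a filter at 1 CPM, DESeq2 and limma-voom. Leaving out each library in turn gave 1 higher throughout and 1 to 3 lower. Over all genes these omissions gave 313 to 694 higher and 264 to 705 lower, against 980 and 974, and over the surrounding lists 1 to 5 higher and 5 to 11 lower, against 2 and 14. Without a filter 670 genes were higher and 627 lower. In the surrounding lists 4 genes were higher with total counts, 4 with the 1 CPM filter and 5 with DESeq2. The causes were not tested.

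With the replicate number as a block, 273 genes were higher and 259 lower, and 1 member was higher (RPIA) and 1 lower (PGD). The surrounding lists gave 0 higher and 2 lower (9 higher and 18 lower at an unadjusted p under 0.05, edgeR). The numbers showed no sign of pairing the libraries: deviations of same-numbered libraries correlated at −0.0172, −0.0367 and −0.0153. Those of differently numbered libraries correlated at −0.02 to 0.0393. These correlations ran over all genes tested, with low counts among them, so a pairing was not excluded.

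Leaving out both the second si-NC and the third si-SNHG17-1 library, a choice made after seeing the data, gave 80 genes higher and 61 lower, and 0 members higher and 0 lower by edgeR (1 and 3 at an unadjusted p under 0.05; adjusted p = 0.0564 for PGD, 0.0665 for RPIA, 0.0815 for TKT and 0.140 for TALDO1). The surrounding lists then gave 0 higher and 1 lower (7 higher and 16 lower at an unadjusted p under 0.05, edgeR). Signs turned only for genes that were not called: PRPS1 had a log2 fold change of 0.011 with total counts and 0.0080 without both libraries, and PGM2 had 0.011 without both. Without single libraries the log2 fold change ranged between −0.058 and 0.032 for PRPS1, −0.62 and 0.25 for PRPS2, −0.11 and 0.0043 for PGLS, and −0.16 and −0.0039 for PGM2. With 3 libraries a group, the wide spread of RPE and PRPS2 limits what difference could be detected.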
